A study of Homo sapiens with 4 samples.

Results

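Cytosolic ribosomal proteins were followed in human neurons in which a transposable element had been targeted for silencing. A symbol counted as a member when it consisted of RPL or RPS, a number and an optional A, X or L with digits, or was RPSA, RPLP0, RPLP1 or RPLP2. This took 84 of the 28307 gene symbols in the deposited files. Of these, 77 were core genes, 46 of the large and 31 of the small subunit, and 7 were paralogs named after a core gene (RPL3L, RPL7L1, RPL10L, RPL22L1, RPL26L1, RPL39L and RPS27L). FAU and RACK1, whose products also sit on the ribosome, fall outside the naming rule and are given apart.

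Groups of 2 libraries were compared by polyA RNA sequencing. The CRISPRi group received lentiviral guide RNAs against an element of the MIR family on chromosome 11, and the control group received the empty guide vector. All 4 libraries came from excitatory neurons of i3N-WTC11, a single induced pluripotent stem cell line, and all carried dCas9-KRAB, a catalytically dead Cas9 joined to a repressor domain, driven by a CAG promoter from an intron of CLYBL. Virus was added to neurons differentiated for 2 weeks, at a multiplicity of infection of about 3; puromycin selection lasted 4 days, and RNA was taken 7 days past infection. The guide carried by each CRISPRi library is not stated in the sources used.

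The ribosome has a small subunit, which reads the messenger RNA, and a large subunit, which joins amino acids. Ribosomal proteins are needed in near equal numbers, and their messenger RNAs are among the most abundant of most cells. Many of these messages begin with a C followed by a stretch of C and U, the 5′ terminal oligopyrimidine or TOP motif, through which mTOR signalling and LARP1 control their translation. Neurons also send such messages into axons and dendrites, where newly made ribosomal proteins can join existing ribosomes.

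The TOP motif was looked for at a single RefSeq start per gene on GRCh38.p14, on the transcribed strand only. The pattern was a C at the first base followed by at least 4 bases that were each C or T. For some genes, RPL32 among them, the searched start lies inside the gene's RefSeq bounds rather than at their edge. Of the 77 core genes 62 had a start in the table used, and 42 of these (67.7%) showed the pattern, against 4.04% of 27305 genes with a start in that table. The windows below span 15 bases before and 15 bases from the start, with the pyrimidine run in capitals and no capitals where the RefSeq start lacks it. The 6 genes shown include RPL15 and RPL22, which had the highest and the lowest ratio of control replicate 1 to the other libraries, and 4 more with a high ratio.
RPL39 (chrX:119791616-119791645, minus strand): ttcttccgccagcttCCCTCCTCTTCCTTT
RPS16 (chr19:39435935-39435964, minus strand): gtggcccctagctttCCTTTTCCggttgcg
RPS6 (chr9:19380222-19380251, minus strand): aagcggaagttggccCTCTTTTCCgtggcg
RPL22 (chr1:6199581-6199610, minus strand): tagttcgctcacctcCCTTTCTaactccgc
RPL15 (chr3:23916530-23916559, plus strand): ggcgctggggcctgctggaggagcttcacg
RPL32 (chr3:12841551-12841580, minus strand): gggttacgacccatcagcccttgcgcgcca

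RPL39 and RPL22 both carry the pattern and lay at opposite ends of the family in the measurements described further on, and RPL15 and RPL32 lack it at this start. A missing match says only that these letters do not stand at the searched start, which for RPL32 is not the edge of the gene. The core genes also shared a second feature that the naming rule did not use: 28 of the 77 (36.4%) held at least 1 small nucleolar RNA gene within their bounds on the same strand in GENCODE release 29, against 1.27% of 19936 protein-coding genes. RPL4 held 5.

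The libraries differed in depth before any gene was compared. CRISPRi replicates 1 and 2 held 44839748 and 41560282 counts, and control replicates 1 and 2 held 944993 and 39325038. One count therefore equals 1.06 CPM (the count scaled to equal library totals) in control replicate 1 and at most 0.0254 CPM in the others, called the deep libraries here. All 15 neuron markers were detected, with sums of 23796 and 24583 CPM in CRISPRi, against 20920 and 23918 CPM in controls, and 0 of the 15 were highest in control replicate 1. The 20 markers of dividing cells summed to 176 and 188 CPM in CRISPRi, and to 864 and 187 CPM in controls, and all 20 were highest in control replicate 1. Astrocyte markers summed to 1.05 and 1.25 CPM in CRISPRi, and to 7.41 and 0.915 CPM in controls. Microglial markers summed to at most 1.06 CPM, in control replicate 1. Both values of that library rest on few counts. Pluripotency markers summed to 13.8 to 21.3 CPM, almost all of it LIN28A. Neither gene beside the targeted element passed: C1QTNF4 stood at 17.6 and 14.6 CPM in CRISPRi libraries, against 15.9 and 15.5 CPM in controls, and MTCH2 at 178.5 and 178 CPM in CRISPRi libraries, against 153 and 181 CPM in controls.

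Core ribosomal protein messages made up 2.56% and 2.75% of all counts in the CRISPRi libraries, against 3.36% and 2.66% in control replicates 1 and 2. In CPM the sums were 25572 and 27477 in CRISPRi, against 33648 and 26605 in the controls. Control replicate 1 stood above the other 3 libraries, while control replicate 2 lay between the CRISPRi libraries, so the groups overlapped. The group means were 26524 ± 1347 CPM in CRISPRi and 30126 ± 4980 CPM in controls (SD, n = 2 each), a difference smaller than the control SD. With 2 libraries against 2, an exact permutation test cannot give a two-sided p below 0.333, so none was run. Both subunits followed the same order. The large subunit summed to 16324 and 17718 CPM in CRISPRi, against 21173 and 17049 CPM in controls, and the small subunit to 9248 and 9758 CPM in CRISPRi, against 12475 and 9556 CPM in controls. The ratio of large to small was 1.77 and 1.82 in CRISPRi, and 1.70 and 1.78 in controls. In bulk RNA, fewer cells of a type and less RNA per cell cannot be told apart.

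**Figure D1:**
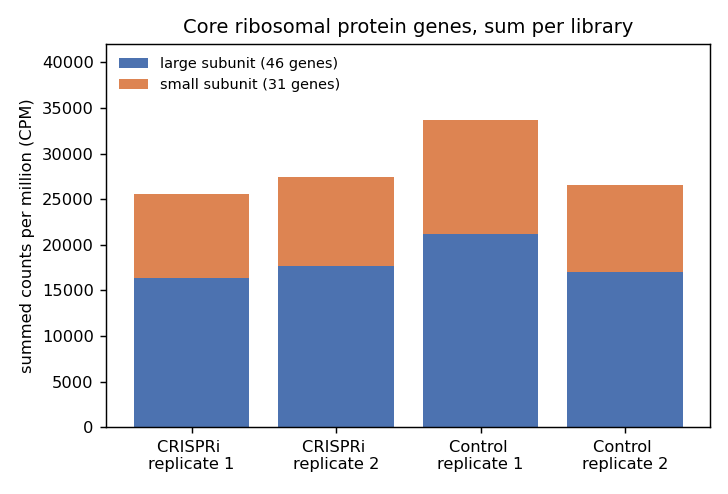
Summed CPM of the 46 large-subunit and 31 small-subunit core genes in each library (bars, 1 library each, no error bars). Control replicate 1 reaches 33648 CPM, and the other 3 libraries lie between 25572 and 27477 CPM.

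Gene by gene the same library stood apart. Control replicate 1 had the highest CPM of the 4 libraries at 75 of 77 core genes, against 39.5% of all 15708 tested genes, and the lowest at the other two, RPL22 and RPL37, against 50.2% of tested genes. Its 95% Poisson counting interval lay wholly above all 3 deep libraries at 55 core genes, against 9.54% of tested genes and 16.6% of the 2107 tested genes whose counts in that library fell in the same range as the core genes (109 to 1491 counts). When the deep libraries were thinned to its total, it was still highest at 72 of 77 core genes, against 29.9% of tested genes. These intervals cover counting error only. Its excess over the mean of the deep libraries was uneven, from 0.852 times for RPL22 to 1.90 times for RPL15, with a median of 1.25 times. RPL15 was high in CRISPRi replicate 2 as well, at 824 CPM, against 935 CPM in control replicate 1. The next highest ratio was 1.86 times for RPL39. The median was 1.24 times over the large and 1.26 times over the small subunit. Among core genes with a searched start it was 1.25 times for the 42 with the TOP pattern and 1.26 times for the 20 without it. The dividing-cell markers moved with this library too, and their part in the ribosomal protein values was not tested.

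**Figure D2:**
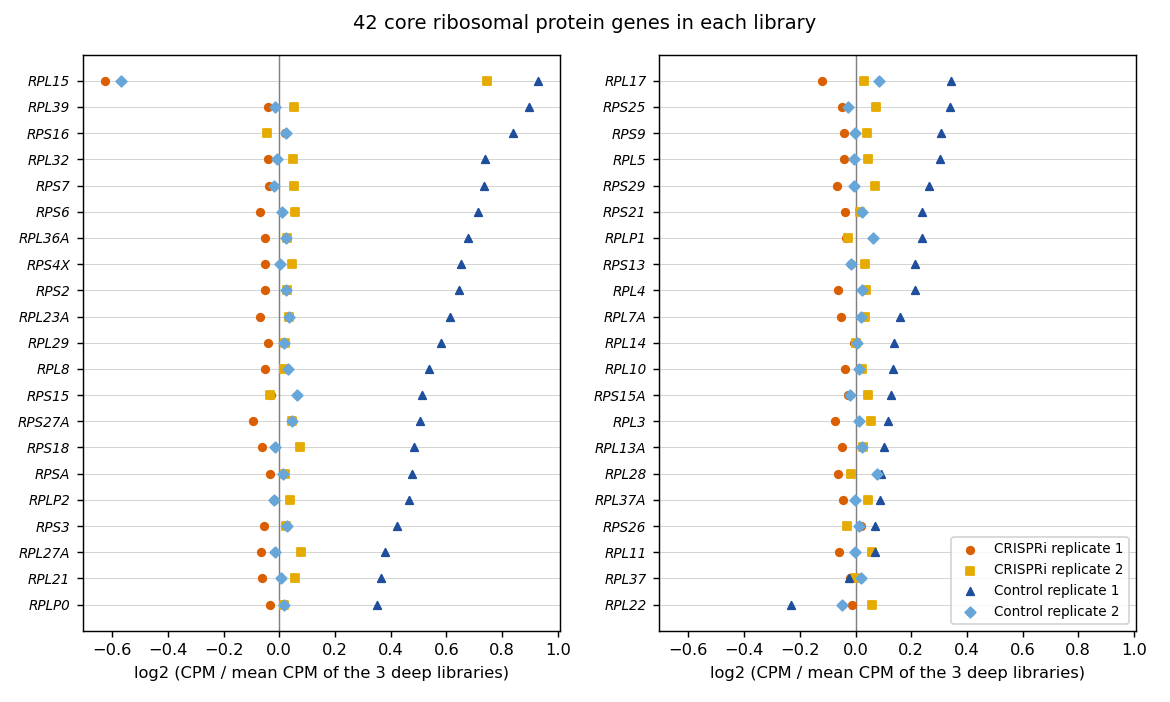
The 42 core genes named in the text (rows, ordered by control replicate 1) in each library, as log2 of the CPM over the gene's mean CPM in the 3 deep libraries. Triangles (control replicate 1) lie right of the others at 40 of the 42, and RPL15 is split within both groups.

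In edgeR's quasi-likelihood test over all 4 libraries, 0 of 77 core genes were called higher in CRISPRi (0.0% of all tested genes were) and 0 were called lower (0.0255% of all tested genes were) at a Benjamini-Hochberg adjusted p under 0.05. No core gene had an unadjusted p under 0.05, against 0.961% of tested genes, and DESeq2 and limma-voom also called 0 core genes (DESeq2 called 0.00497% of tested genes higher and 0.0596% lower, limma-voom 0.0% and 0.0127%). The median log2 fold change (CRISPRi over control) was -0.13 over the core genes, against 0.01 over all tested genes, and 75 of 77 were negative, against 47.3% of tested genes. The median was -0.13 over the large and -0.12 over the small subunit. The 95% confidence interval excluded a halving for 74 of 77 genes, the exceptions being RPL15, RPL39 and RPS16. Both CRISPRi libraries lay below both controls at 17 core genes (22.1%, against 16.5% of tested genes), and above both at 1, RPL22 (against 17.8% of tested genes).

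CRISPRi was then set against each control library alone. Leaving 1 library in a group rests on the assumption that it varies like the other group. Against control replicate 1 alone, edgeR called 38 of 77 core genes lower in CRISPRi, against 4.97% of all tested genes, and 0 higher, against 3.61%. The median log2 fold change was -0.28 over the core genes, where the median of all tested genes was 0.10. It was -0.29 over the large and -0.28 over the small subunit. Against control replicate 2 alone, edgeR called 0 core genes lower, against 0.222% of tested genes, and 0 higher, against 0.437%. The median was then -0.01 over the core genes and 0.00 over all tested genes, with 43 of 77 negative. RPL28 had a log2 fold change of -0.11 there. Of the 77 intervals 76 excluded a 1.5-fold change in either direction, with RPL15 the exception. With CRISPRi replicate 1 left out, 0 core genes were called, against 0.0125% of tested genes higher and 0.0938% lower, and with CRISPRi replicate 2 left out 0 were called, against 0.025% higher and 0.181% lower. Apart from RPL15, log2 fold changes against control replicate 2 ran from -0.12 for RPL17 to 0.08 for RPL22, with standard errors of 0.04 to 0.07.

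**Figure D3:**
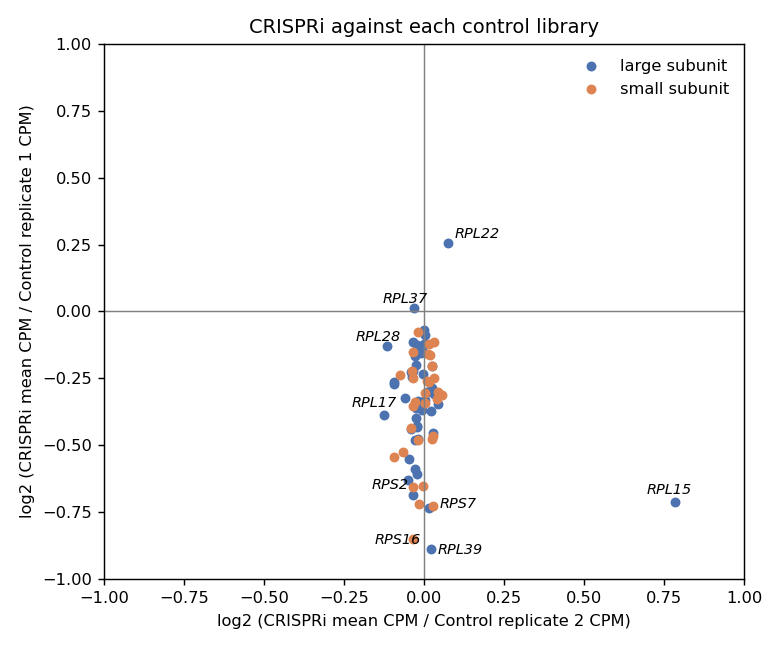
Log2 ratio of the CRISPRi mean CPM to control replicate 2 (horizontal axis) and to control replicate 1 (vertical axis) for the 77 core genes; both axes share the CRISPRi libraries. Apart from RPL15 the points stay between -0.13 and 0.07 on the horizontal axis and spread from -0.89 to 0.25 on the vertical one.

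Among small-subunit genes RPS16, whose protein reaches the site where transfer RNA is held, had the most negative log2 fold change. It was at 131 and 126 CPM in CRISPRi, against 232 and 132 CPM in controls. The CRISPRi libraries were both below both controls, but control replicate 2 lay just above CRISPRi replicate 1. The log2 fold change was -0.37 (SE 0.25, edgeR adjusted p = 1), and was -0.82 against control replicate 1 alone and -0.03 against control replicate 2 alone.

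RPS6, the ribosomal protein that S6 kinases phosphorylate downstream of mTOR, was at 292 and 319 CPM in CRISPRi, against 503 and 309 CPM in controls. RPS2, a protein of the messenger RNA entry channel and the core gene with the highest deposited value per length, was at 974 and 1029 CPM in CRISPRi, against 1578 and 1026 CPM in controls. RPS7, mutated in some families with Diamond-Blackfan anaemia, was at 177 and 188 CPM in CRISPRi, against 302 and 179 CPM in controls. In each of the 3, control replicate 1 alone was high and control replicate 2 lay inside the CRISPRi range. Their log2 fold changes were -0.36, -0.35 and -0.31, and -0.69, -0.63 and -0.70 against control replicate 1 alone.

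RPS15, which lines the decoding centre, lay below both controls in both CRISPRi libraries. It was at 291 and 291 CPM in CRISPRi, against 424 and 311 CPM in controls. The groups did not overlap, and its unadjusted p of 0.0897 was the smallest of any core gene (edgeR adjusted p = 1). Its log2 fold change was -0.30 (SE 0.14), and -0.09 against control replicate 2 alone.

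At the other end of the small subunit, RPS26 and RPS15A differed little among libraries. RPS26, which lies at the messenger RNA exit channel, was at 142 and 137 CPM in CRISPRi, against 147 and 141 CPM in controls. RPS15A was at 208 and 219 CPM in CRISPRi, against 232 and 209 CPM in controls. Both had overlapping groups and log2 fold changes of -0.03 and -0.02. RPS21 and RPS29, a small zinc-binding protein, had the lowest mean CPM of all core genes. RPS21 was at 95.1 and 98.8 CPM in CRISPRi, against 115 and 99.4 CPM in controls. RPS29 was at 108 and 119 CPM in CRISPRi, against 135 and 112 CPM in controls.

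In the large subunit RPL39 is a very small protein in the wall of the exit tunnel through which the new chain leaves. RPL39 had the lowest ratio of the CRISPRi mean to control replicate 1 of all core genes (log2 ratio -0.89). It was at 125 and 133 CPM in CRISPRi, against 239 and 127 CPM in controls. Control replicate 1 was high, and control replicate 2 lay between the CRISPRi libraries. The log2 fold change was -0.37 (SE 0.29), -0.86 against control replicate 1 alone and 0.03 against control replicate 2 alone.

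RPL32 was at 288 and 306 CPM in CRISPRi, against 494 and 294 CPM in controls. RPL23A, which lies at the mouth of the exit tunnel where the signal recognition particle docks, was at 216 and 232 CPM in CRISPRi, against 347 and 232 CPM in controls. RPL29, a protein also known for binding heparin, was at 303 and 316 CPM in CRISPRi, against 466 and 316 CPM in controls. For these 3 genes control replicate 1 was again the one high library. Their log2 fold changes were -0.35, -0.31 and -0.29, or -0.70, -0.60 and -0.56 against control replicate 1 alone.

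The large-subunit genes with the most counts included RPL4, RPL3, RPL13A and RPL8. RPL4 was at 1066 and 1142 CPM in CRISPRi, against 1289 and 1130.1 CPM in controls. RPL3, which reaches the peptidyl transferase centre, was at 876 and 957 CPM in CRISPRi, against 999 and 930.3 CPM in controls. RPL13A, known also as a translational silencer released from the ribosome, was at 781 and 823 CPM in CRISPRi, against 868 and 822 CPM in controls. These 3 had overlapping groups and log2 fold changes of -0.11, -0.05 and -0.06. RPL8, whose protein lies beside the peptidyl transferase centre, was at 593 and 621 CPM in CRISPRi, against 889.95 and 628 CPM in controls. Its groups did not overlap, and its log2 fold change was -0.29, or -0.52 against control replicate 1 alone.

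Per length the order of the core genes was different. By the deposited FPKM-like value, a count per length and library total, RPS2 led with a median of 1058 over the deep libraries, and RPL13A at 711, RPL3 at 703 and RPL8 at 699 were also high. RPL27A at 48.3 and RPL14 at 54.0 were lowest. The length implied by count and value was 4648 bases for RPL27A and 7232 bases for RPL14, where the median over 72 core genes was 932 bases, so their low rank goes with a long assigned length. RPL7A, RPS9, RPS18 and RPS25 were among 5 core genes with no such value, because their only row stood on an alternate or fix contig with the value at 0, although each had counts in every library.

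The acidic stalk that recruits elongation factors is built from RPLP0, RPLP1 and RPLP2. RPLP0 was at 718 and 744 CPM in CRISPRi, against 939 and 744 CPM in controls. RPLP1 was at 401 and 403 CPM in CRISPRi, against 485 and 429 CPM in controls. RPLP2 was at 201 and 209 CPM in CRISPRi, against 281 and 201 CPM in controls. The log2 fold changes were -0.18, -0.16 and -0.18, or -0.02, -0.09 and 0.03 against control replicate 2 alone, where the sign of RPLP2 turned. The groups did not overlap for RPLP1 alone among the 3.

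RPL5 and RPL11 can, with 5S ribosomal RNA, bind MDM2 and thereby stabilise p53. RPL5 was at 474 and 503 CPM in CRISPRi, against 602 and 486 CPM in controls, and passed as lower against control replicate 1 alone. RPL11 was at 284 and 309 CPM in CRISPRi, against 311 and 296 CPM in controls. The log2 fold changes were -0.13 for RPL5 (SE 0.12) and -0.01 for RPL11 (SE 0.08), and both were 0.01 against control replicate 2 alone.

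Of the 4 core genes on the X chromosome, 3 had a counting interval in control replicate 1 above the deep libraries, where 55 of all 77 core genes did. RPS4X was at 475 and 508 CPM in CRISPRi, against 772 and 493 CPM in controls. RPL36A, a protein of the transfer RNA exit site, was at 129.6 and 137 CPM in CRISPRi, against 215 and 137 CPM in controls. Against control replicate 1 alone their log2 fold changes were -0.62 and -0.66. RPL10, which joins the large subunit late in its assembly, differed less, at 445 and 463 CPM in CRISPRi, against 501 and 460.5 CPM in controls.

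No member lies close to the targeted element, which the design text places on chromosome 11 from 47605296 to 47605575 and the title from 47608036 to 47608220. The 5 core genes of that chromosome are RPS3, RPS13, RPL27A, RPLP2 and RPS25, at distances of 27.8 to 71.4 Mb on GRCh38. Their log2 fold changes were -0.22, -0.06, -0.14, -0.18 and -0.10, and 0 of the 5 passed. Against control replicate 2 alone they were -0.03, 0.03, 0.03, 0.03 and 0.04, so that 4 signs turned. Against control replicate 1 alone RPS3 and RPLP2 passed as lower, 2 of 5 where 38 of all 77 core genes did.

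RPL15, a large-subunit protein needed for pre-ribosomal RNA processing, was the one core gene that varied within both groups. It was at 318 and 824 CPM in CRISPRi, against 935 and 332 CPM in controls. The counts behind these values were 14261 and 34261 in CRISPRi, against 884 and 13047 in controls. One library of each group was high and the other low, so the groups overlapped. CRISPRi replicate 2 was 2.59 times CRISPRi replicate 1, whereas over the other 76 core genes that ratio ran from 0.956 for RPS16 to 1.11 for RPL17. The group means were 571 ± 358 CPM in CRISPRi and 634 ± 427 CPM in controls (SD, n = 2 each), and the log2 fold change was -0.09 with a 95% interval of -1.97 to 1.80. The sign depended on the control used, at -0.68 against control replicate 1 alone and 0.79 against control replicate 2 alone. The deposited FPKM-like values were 123 and 341 in CRISPRi, against 386 and 127 in controls. As a count per length and library total, they give no separate support. NKIRAS1, which overlaps RPL15 on the opposite strand, was at 27.1 and 30.99 CPM in CRISPRi, against 24.3 and 25.5 CPM in controls, and did not share the pattern.

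RPL22 was the core gene with the most positive log2 fold change. Its protein is dispensable for bulk translation in mice, where it also regulates its paralog Rpl22l1. RPL22 was at 209 and 219.9 CPM in CRISPRi, against 179.9 and 204 CPM in controls. The CRISPRi libraries were both above both controls, and control replicate 1, with 170 counts (counting interval 154 to 209 CPM), was lowest. The log2 fold change was 0.16 (SE 0.09, edgeR adjusted p = 1), 0.28 against control replicate 1 alone (adjusted p = 0.0771) and 0.08 against control replicate 2 alone. RPL22L1 went the other way in control replicate 1. It was at 2.16 and 2.50 CPM in CRISPRi, against 8.47 and 2.06 CPM in controls, the 8.47 CPM being 8 counts (counting interval 3.65 to 16.7 CPM). Its log2 fold change was -0.51 (SE 0.70), or 0.18 against control replicate 2 alone.

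RPL37 was the second core gene with a positive value and hardly varied, at 404 and 409 CPM in CRISPRi, against 403 and 415 CPM in controls (log2 fold change 0.00). Its sign turned under total-count scaling (-0.01). RPL37A was at 447 and 475 CPM in CRISPRi, against 489.95 and 460.2 CPM in controls, with a log2 fold change of -0.02.

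The other paralogs were low or moderate in level. RPL7L1 was the most counted, at 136 and 139.7 CPM in CRISPRi, against 159.8 and 132 CPM in controls. RPS27L, a p53 target, was at 34.3 and 32.9 CPM in CRISPRi, against 29.6 and 33.0 CPM in controls. RPL26L1 was at 15.7 and 15.9 CPM in CRISPRi, against 12.7 and 15.2 CPM in controls. Their log2 fold changes were -0.02, 0.07 and 0.11, and none of the 5 paralogs tested passed by edgeR, with all 4 libraries or against either control.

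RPL39L, known from male germ cells in mice, was at 2.68 and 2.45 CPM in CRISPRi, against 0 and 2.57 CPM in controls. By the limit of 3 counts used for a count of 0, control replicate 1 allows a level of up to 3.17 CPM (its 95% counting interval reaches 3.904 CPM), above that of the other libraries, so a difference was not detectable at this depth. Its core partner RPL39 was, in contrast, highest in that library. RPL3L, a gene of striated muscle, gave 0 and 2 counts in CRISPRi, against 0 and 0 in controls. RPL10L, a testis gene, gave 0 and 1 counts in CRISPRi, against 0 and 0 in controls. Neither passed the filter of the edgeR test over 4 libraries, and their core partners RPL3 and RPL10 were at 445 to 999 CPM.

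**Figure D4:**
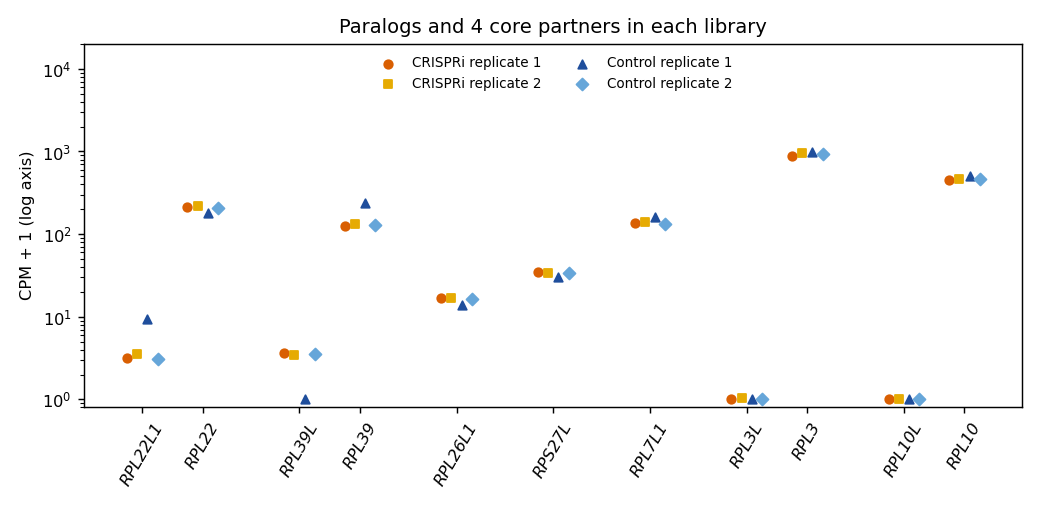
CPM + 1 (log axis) of the 7 paralogs in the 4 libraries, with the core partners RPL22, RPL39, RPL3 and RPL10 right of theirs. RPL22L1 is highest and RPL39L is at 0 in control replicate 1, while RPL3L and RPL10L are near 0 in every library.

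Read-through transcripts limit a few members. RPL17-C18orf32 had 1830 and 1411 counts in CRISPRi, against 0 and 639 counts in controls. Scaled to library totals it was at 40.8 and 34.0 CPM in CRISPRi, against 0 and 16.2 CPM in controls. RPL17 was at 229 and 254 CPM in CRISPRi, against 315 and 263 CPM in controls. The pair together stood at 269 and 288 CPM in CRISPRi, against 315 and 279.6 CPM in controls, so the lower RPL17 in both CRISPRi libraries did not hold for the pair together. RPL36A-HNRNPH2 and RPS10-NUDT3 had at most 328 and 142 counts in any library. Members also share sequence with many processed pseudogenes, and how reads were divided among such copies is not stated in the sources used. RPL21 was listed on chromosomes 13 and 10, and its counts are the sum of both entries.

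Ribosomal proteins outside the naming rule followed the core genes. RACK1, a scaffold on the head of the small subunit, was at 625 and 637 CPM in CRISPRi, against 821 and 627 CPM in controls. FAU, a ubiquitin-like protein joined to a small-subunit one, was at 196 and 202 CPM in CRISPRi, against 222 and 197 CPM in controls. Both were highest in control replicate 1, neither passed over 4 libraries, and RACK1 but not FAU passed as lower against control replicate 1 (log2 fold change -0.35, edgeR adjusted p = 0.00635). RPS27A, the ubiquitin fusion among the core genes, was at 149 and 165 CPM in CRISPRi, against 226 and 165 CPM in controls.

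The machinery around the ribosome was read from lists. Of 32 ribosome biogenesis genes 0 passed in either direction over 4 libraries, 24 had a negative log2 fold change, and the median was -0.12. The nucleolar protein NOP56 was at 85.1 and 83.2 CPM in CRISPRi, against 117 and 89.6 CPM in controls (log2 fold change -0.21). The ribosomal RNA methyltransferase NOP2 was at 17.9 and 18.2 CPM in CRISPRi, against 39.2 and 20.4 CPM in controls (log2 fold change -0.44). Against control replicate 1 alone 13 of the 32 passed as lower and 0 as higher, where 4.97% and 3.61% of all tested genes did. Against control replicate 2 alone 0 passed.

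Of 29 initiation genes 0 passed over 4 libraries, with 19 negative and a median of -0.02. Against control replicate 1 alone 6 of the 29 passed as lower, where 4.97% of all tested genes did, and 1 as higher, which is about the 3.61% of all tested genes. That one was the helicase EIF4A2, at 568 and 550.1 CPM in CRISPRi, against 402 and 528 CPM in controls. The poly(A)-binding protein PABPC1 was among the lower ones, at 454 and 465 CPM in CRISPRi, against 553 and 478 CPM in controls.

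Of 12 elongation genes 0 passed over 4 libraries, with 6 negative and a median of 0.00. Against control replicate 1 alone 3 of the 12 passed as lower and 1 as higher, where 4.97% and 3.61% of all tested genes did. EIF5A, a factor that eases stalled peptide bonds, was at 329 and 337 CPM in CRISPRi, against 563 and 349 CPM in controls. EEF1G was at 952 and 1004 CPM in CRISPRi, against 1223 and 989 CPM in controls. Both passed as lower against control replicate 1 alone (edgeR adjusted p = 0.000792 and 0.0171).

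Chaperones and importers of ribosomal proteins numbered 8, of which 0 passed over 4 libraries and 1, the importin IPO5, passed as lower against control replicate 1 alone, where 4.97% of all tested genes did. IPO5 was at 172 and 169 CPM in CRISPRi, against 225 and 171 CPM in controls, and BCCIP at 45.8 and 45.7 CPM in CRISPRi, against 66.7 and 45.4 CPM in controls. The list of regulators of TOP messages held 14 genes, among them the transcription factors MYC, MYCN and MAX. Of the 14, 0 passed over 4 libraries, with a median of -0.01. The translational repressor EIF4EBP1 was at 42.6 and 44.1 CPM in CRISPRi, against 68.8 and 44.3 CPM in controls. Its log2 fold change was -0.64 against control replicate 1 alone. The RNA-binding protein TIAL1 was at 65.8 and 51.1 CPM in CRISPRi, against 74.1 and 65.0 CPM in controls.

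Library by library, the median of control replicate 1 over the core genes lay 0.32 above the mean of the deep libraries on the log2(CPM + 1) scale. It lay 0.41 above for biogenesis, 0.16 for initiation, 0.06 for elongation and 2.35 for dividing-cell markers. Neuron markers lay at -0.19, and all tested genes at -0.06. In the deep libraries the core median was -0.04 and 0.04 in CRISPRi, and 0.01 in control replicate 2.

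**Figure D5:**
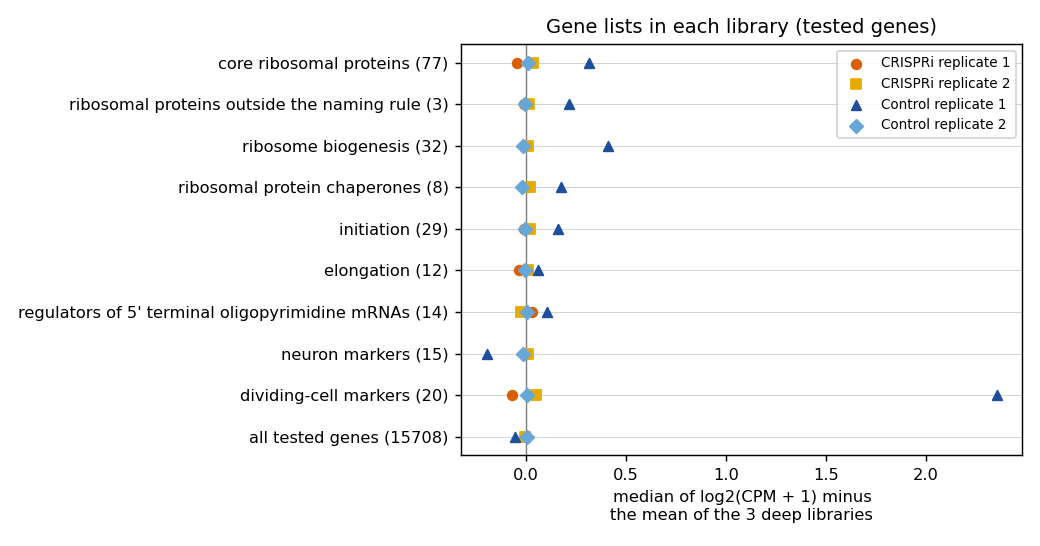
Median over the tested genes of each list (numbers in brackets) of log2(CPM + 1) minus the mean of the 3 deep libraries, in each library. Control replicate 1 lies at 0.32 for the core genes, 0.41 for biogenesis and 2.35 for dividing-cell markers, and at -0.19 for neuron markers.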

How the data were processed

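The authors' files hold, for each gene row, a read count (whole numbers, not normalized) and a second value whose unit no header or label names. It behaves as FPKM, and as deposited it was used only to order levels per length. The submitters' processing notes name hg38, edgeR and limma; no source used here gives an aligner, a counting tool or a strand setting.

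Counts were summed per symbol, and CPM was taken over the library total. Differences between CRISPRi and control came from the robust quasi-likelihood F test of edgeR 4.0.16 (R 4.3.3), after filterByExpr and TMM scaling, with group as the one term, over all 15708 tested genes and a Benjamini-Hochberg threshold of 0.05. In the fold changes deeper libraries weigh more, while means and SDs give each library the same weight. Alternatives included DESeq2 1.42.0, limma-voom (limma 3.58.1) and leaving out each library. The labels state biologically independent replicates; the replicates differed beyond counting noise. Members, lists and the rule for naming genes were chosen with earlier results of these data known. That rule took the highest, lowest, most changed and most deviating core genes, every paralog, and 2 genes per list. It also took the 10 core genes with the smallest p against control replicate 1 alone. Their passing there follows from that choice. RPL5, RPL10, RPL17, RPL28, RPS27A, RPL14, RPL27A, the stalk and chromosome 11 genes were added after values were seen. Simulated counts were used to try the test. The Poisson intervals of control replicate 1 cover counting error only. The intervals of the fold changes come from the quasi-likelihood fit, which also takes in spread between replicates. Some genes are not reported here.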

Additional observations from a re-analysis of the deposited data

How the results depend on the processing

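The calls turned on control replicate 1. With a library left out, core genes and paralogs called lower in CRISPRi ran from 0 to 38, core genes with a negative log2 fold change from 43 to 76, and the core median from -0.28 to -0.01; the ends 38 and -0.28 came without control replicate 2, and 43 and -0.01 without control replicate 1. Accompanying genes called lower then ran from 0 to 1 for proteins outside the naming rule, chaperones and TOP regulators each, 0 to 3 for elongation, 0 to 6 for initiation and 0 to 13 for biogenesis, and those called higher from 0 to 1 for elongation and initiation; each upper end came without control replicate 2. Under the other 9 fits, 0 members were called in either direction, and the core median ran from -0.18 (thinned) to -0.05 (limma-voom). The replicate block also called 0 members, against 0.108% of tested genes higher and 0.159% lower, with a core median of -0.13. In that edgeR fit 14 core genes had an unadjusted p under 0.05. The share of all tested genes at that threshold is not given, so no reading is drawn from the 14. The labels do not say that numbers pair libraries, and the correlation of deviations was -0.03. Signs turned for these genes of the naming rule, which had not passed: RPS26 (0.004), RPL11 (0.093) and RPS27L (-0.046) after thinning; RPL37 (-0.014 with limma-voom, -0.012 with total counts, -0.002 with a filter of 1 CPM); RPS15A (0.021), RPL15 (0.315) and RPL7L1 (0.049) with limma-voom. With a library left out RPL3 ran from -0.123 to 0.01, RPS29 from -0.229 to 0.015, RPL39 from -0.859 to 0.026, RPL32 from -0.704 to 0.019, RPS4X from -0.622 to 0.002, RPS7 from -0.696 to 0.034, RPL37 from -0.025 to 0.042, RPL11 from -0.079 to 0.046, RPS15A from -0.086 to 0.037, RPL37A from -0.073 to 0.021, RPL15 from -0.953 to 0.791, RPL22L1 from -1.829 to 0.184 and RPL7L1 from -0.184 to 0.071. The cause was not tested. In control replicate 1, 3 counts equal 3.17 CPM, which limits the paralogs.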
